A study of Homo sapiens with 42 samples.

Results

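Transforming growth factor beta (TGFB) was given to MCF10A cells, an established and non-tumorigenic human mammary epithelial line. At 822 stretches of DNA, peaks were called almost only in libraries of those cells. At 681 of them, the same 2 of the 6 TGFB libraries were the only TGFB libraries with a call. Open DNA was measured by ATAC-seq, in which a transposase cuts and tags the DNA it can reach, so that a peak of reads marks accessible chromatin. Overlapping peaks of 42 libraries on chromosomes 1 to 22 and X were merged into 167085 sites. A site was kept as a member when at least 2 of the 6 TGFB libraries and at most 1 of the other 36 libraries called it. The members were thus chosen by the peak calls of all 42 libraries, and their calls, positions, widths and peak heights are given as a description with no test. Of all merged sites, 46033 (27.6%) were called in at least 2 TGFB libraries, and the 822 members were 0.492% of all merged sites. No other library called 494 members, and 1 other library called the remaining 328.

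TGFB libraries came from cells given 10 ng/ml TGFB together with EGF for 24 h or 48 h, with 3 replicates (A to C) at each time. The other libraries were untreated CTRL cells at 0 h (4 libraries), PBS, the vehicle, at 24 h and 48 h (3 each), EGF at 10 ng/ml (4 each), HGF at 40 ng/ml, OSM at 10 ng/ml, and IFNG at 20 ng/ml with EGF (3 each at each time). Cells of every group had spent 18 h in medium without EGF or insulin, and the EGF dose in the combinations is not given in the labels. All libraries came from 1 cell line, so the replicates are separate samples of that line and not donors. BMP2-treated libraries were not analysed here.

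TGFB binds a pair of serine/threonine kinase receptors, which phosphorylate SMAD2 and SMAD3. These join SMAD4, enter the nucleus and bind short GTCT-type elements, usually beside other factors such as AP-1. TEAD factors, which act with YAP and TAZ, and RUNX factors are known partners of SMAD3 at enhancers. In breast epithelium the pathway is known for growth arrest, for production of extracellular matrix and for epithelial-mesenchymal transition (EMT), in which cells lose epithelial junctions and gain contractile and migratory features.

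The sequences of 12 members are shown: the 4 that 4 TGFB libraries called, and all 8 that lie within 50 kb of a transcription start of a listed gene of the TGFB pathway, EMT, matrix or actin cytoskeleton. Each run is the plus strand of GRCh38 (hg38), reaching 100 bases to each side of the strongest TGFB summit. Capitals mark matches, on either strand, to the AP-1 motif TGANTCA, the SMAD motif CAGACA, the TEAD motif GGAATG, the RUNX motif TGTGGT or the forkhead motif TGTTTAC.
WNT2 chr7:117283490-117283690: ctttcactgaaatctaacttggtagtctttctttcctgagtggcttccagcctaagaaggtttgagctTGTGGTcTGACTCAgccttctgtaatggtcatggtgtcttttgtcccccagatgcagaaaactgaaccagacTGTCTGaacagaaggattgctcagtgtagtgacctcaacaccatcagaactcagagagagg
LYSMD2 chr15:51727625-51727825: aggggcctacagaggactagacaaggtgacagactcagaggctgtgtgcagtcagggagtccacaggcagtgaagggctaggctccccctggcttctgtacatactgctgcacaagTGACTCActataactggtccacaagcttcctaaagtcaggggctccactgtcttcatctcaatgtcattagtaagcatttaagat
ZNF354A chr5:178741029-178741229: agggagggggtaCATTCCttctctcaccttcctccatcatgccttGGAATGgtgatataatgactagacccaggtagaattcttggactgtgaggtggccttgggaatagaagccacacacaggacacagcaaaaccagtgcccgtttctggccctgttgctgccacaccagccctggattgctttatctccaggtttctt
HECTD2 chr10:91349465-91349665: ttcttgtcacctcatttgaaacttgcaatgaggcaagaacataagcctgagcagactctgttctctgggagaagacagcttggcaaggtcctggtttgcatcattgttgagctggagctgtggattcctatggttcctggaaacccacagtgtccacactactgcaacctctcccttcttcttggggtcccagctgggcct
SMAD3 chr15:67178677-67178877: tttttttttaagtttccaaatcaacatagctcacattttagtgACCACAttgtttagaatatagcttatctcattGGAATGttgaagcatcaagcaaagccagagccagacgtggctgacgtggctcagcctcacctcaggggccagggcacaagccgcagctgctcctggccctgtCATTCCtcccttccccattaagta
IFT43 (near TGFB3) chr14:76023057-76023257: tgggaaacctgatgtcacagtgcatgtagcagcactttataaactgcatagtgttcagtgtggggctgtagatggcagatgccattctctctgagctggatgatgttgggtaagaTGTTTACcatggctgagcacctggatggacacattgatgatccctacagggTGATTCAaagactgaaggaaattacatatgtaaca
CDH2 chr18:28065519-28065719: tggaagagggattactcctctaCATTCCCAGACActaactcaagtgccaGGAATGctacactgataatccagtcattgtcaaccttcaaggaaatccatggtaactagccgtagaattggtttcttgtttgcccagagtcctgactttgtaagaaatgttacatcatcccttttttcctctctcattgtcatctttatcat
FN1 chr2:215465368-215465568: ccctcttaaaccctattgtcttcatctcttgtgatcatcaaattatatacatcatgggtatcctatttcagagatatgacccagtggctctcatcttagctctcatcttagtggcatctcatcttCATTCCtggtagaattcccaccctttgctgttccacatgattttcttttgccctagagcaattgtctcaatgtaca
PRRX1 chr1:170711713-170711913: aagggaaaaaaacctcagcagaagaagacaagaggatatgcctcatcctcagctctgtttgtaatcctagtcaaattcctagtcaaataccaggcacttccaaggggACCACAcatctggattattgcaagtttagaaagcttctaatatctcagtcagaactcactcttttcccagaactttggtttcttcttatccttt
CALD1 chr7:134742284-134742484: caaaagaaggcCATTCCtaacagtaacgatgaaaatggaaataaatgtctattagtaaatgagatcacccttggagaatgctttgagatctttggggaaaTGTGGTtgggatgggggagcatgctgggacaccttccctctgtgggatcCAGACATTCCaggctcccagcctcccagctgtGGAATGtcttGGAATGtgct
PALLD chr4:168618626-168618826: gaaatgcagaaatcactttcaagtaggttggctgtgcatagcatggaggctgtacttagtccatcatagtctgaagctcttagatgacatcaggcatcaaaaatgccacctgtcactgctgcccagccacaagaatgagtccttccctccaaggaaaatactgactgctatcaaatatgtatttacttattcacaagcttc
COL4A2 chr13:110323359-110323559: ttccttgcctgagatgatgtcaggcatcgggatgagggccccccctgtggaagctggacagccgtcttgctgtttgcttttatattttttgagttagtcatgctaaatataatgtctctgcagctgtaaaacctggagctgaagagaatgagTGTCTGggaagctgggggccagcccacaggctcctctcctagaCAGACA
The WNT2 window held an AP-1, a SMAD and a RUNX match, and the LYSMD2 window an AP-1 match. The CALD1 window held 6 matches, of which 4 were TEAD. The COL4A2 window held 2 SMAD matches, the ZNF354A window 2 TEAD matches, and the CDH2 window 1 SMAD and 2 TEAD matches. The windows near HECTD2 and in PALLD held 0 matches to the 5 motifs. The shorter SMAD motif GTCTG was not marked in any window, and both of these windows held it. A match is a description of the letters and was not tested as a binding site.

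The members rested mainly on 2 of the 6 TGFB libraries. TGFB 24 h A called 783 members, 24 h B called 24 and 24 h C called 32. TGFB 48 h A called 111, 48 h B called 13 and 48 h C called 757. These numbers moved with the number of listed peaks, which was 105796, 7014 and 5306 at 24 h and 21947, 3756 and 54996 at 48 h for replicates A, B and C. The deposited files hold no read counts, so depth is unknown. Fewer cells with an open site and less signal per cell cannot be told apart in such bulk libraries. Exactly the pair of 24 h A and 48 h C called 681 members (82.8%), and 60 more were called in that pair and in 48 h A. Both libraries of the pair called 749 of the 822 members. They also called 44161 of the 46033 merged sites that at least 2 TGFB libraries called, so reliance on this pair was not particular to the members. In all, 750 members were called in 2 TGFB libraries, 68 in 3, 4 in 4, and 0 in 5 or 6. Both times were represented at 799 members, while 16 were called at 24 h only and 7 at 48 h only. Without 24 h A the rule gave 107 sites, without 48 h C 134, and without both 36. Leaving out any of the other 4 TGFB libraries gave 778 to 813 sites.

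**Figure D1:**
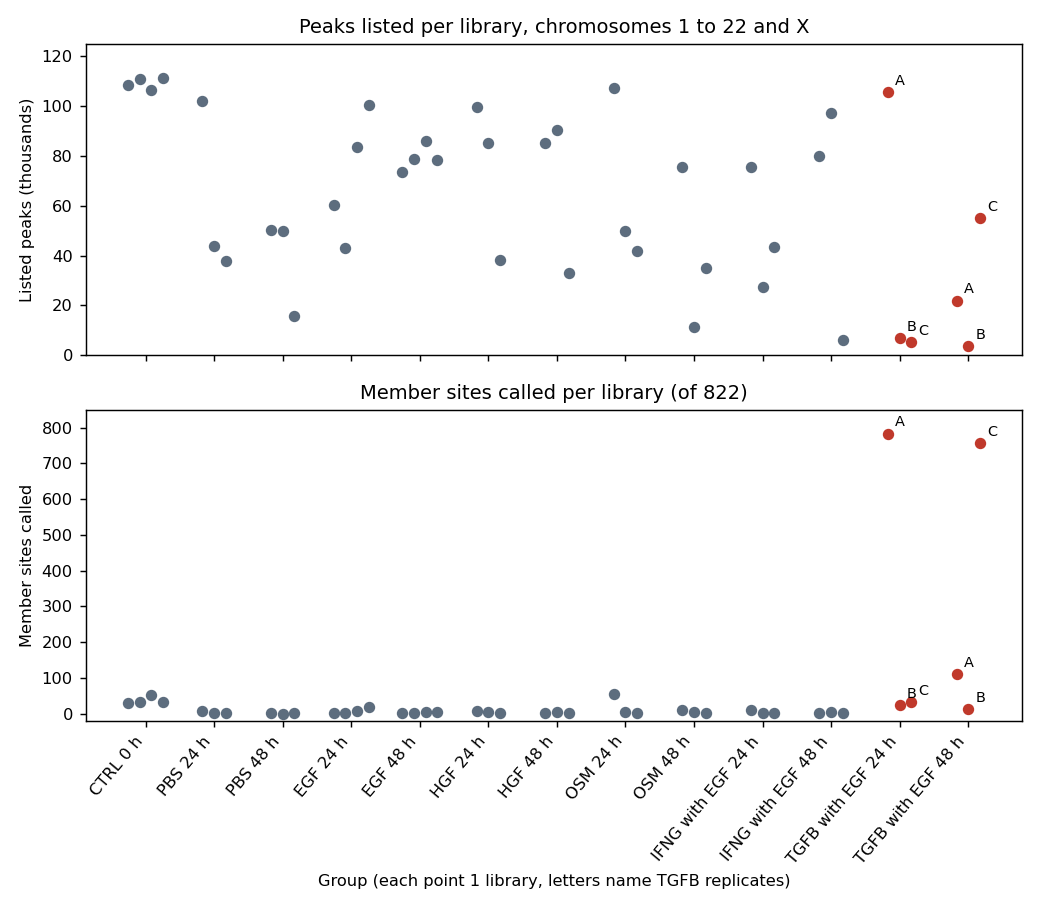
Number of listed peaks, in units of 1000 (top) and number of the 822 members called (bottom) in each of the 42 libraries, by group, with 1 point per library and TGFB libraries in red with their replicate letters. TGFB 24 h A and 48 h C call 783 and 757 members, TGFB 48 h A calls 111, and no library outside the TGFB groups calls more than 54.

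**Figure D2:**
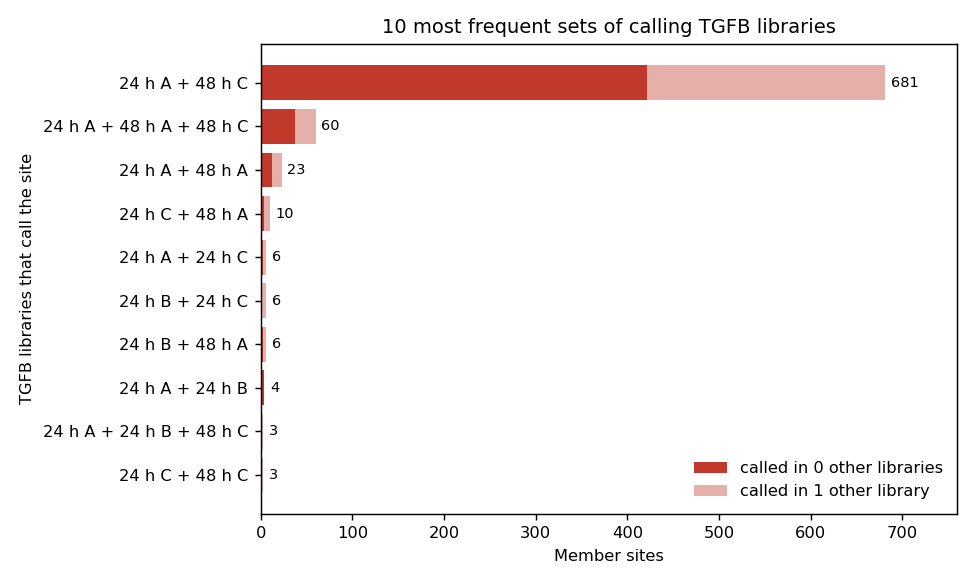
Number of members by the set of TGFB libraries that call them, for the 10 most frequent sets, with members called in 0 other libraries in dark red and in 1 other library in light red. The pair of 24 h A and 48 h C alone accounts for 681 members, and the next set, with 48 h A added, for 60.

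Per 1000 listed peaks, the TGFB libraries called 3.42 to 13.8 members, and the other libraries 0 to 0.504, a gap that the rule itself makes. CTRL libraries, with 106456 to 111262 peaks, were as large as TGFB 24 h A and called 30 to 52 members each. The single calls outside TGFB were unevenly spread: CTRL held 149 of 328 (45.4%) with 18.0% of the peaks of the other libraries, and OSM held 82 (25.0%) with 13.2%. Of these 82, 54 came from 1 library, OSM 24 h A, with 107141 peaks. PBS held 12 (3.66%) with 12.4% and EGF 44 (13.4%) with 24.9%. By the sequencing lane named with each deposited list, lane 6, the lane of TGFB 24 h A and 48 h A, held 23.2% of these calls with 18.1% of the peaks. Lane 7, the lane of TGFB 48 h B and 48 h C, held 7.32% with 12.9%. Lane 5, the lane of TGFB 24 h B and 24 h C, held 11.9% with 19.8%. Lanes 4 and 8, without a TGFB library, held 35.4% with 32.7% and 22.3% with 16.5%. The part of the lane in the members was not tested.

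The labelled epithelial identity was checked at 20 epithelial genes, among them the basal keratins KRT5 and KRT14 and the transcription factor TP63. A peak lay within 1000 bp of a transcription start of 18 of them in TGFB 24 h A, 15 in 48 h C and 7 in 48 h A, beside 17 to 19 in the CTRL libraries. TGFB 24 h B, 24 h C and 48 h B listed a peak at 0 of the 20. These 3 libraries therefore carry no check of the label. The study's methods set a minimum fraction of reads in peaks and removed samples under it. The labels used here do not say which samples, so whether these 3 libraries were among them is not known. All 42 lists were kept, and calls missing in these 3 lists may come from removed samples.

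Member peaks were of moderate height. The fold enrichment is the authors' ratio of fragment pileup to local background at the summit, and the strongest peak of a site in a library was used. In TGFB 24 h A the median over its members was 6.60, with a range of 2.97 to 16.7, beside 7.36 over all its sites. In 48 h C it was 4.98, with a range of 2.76 to 12.1, beside 6.35 over all its sites. The medians in the other 4 TGFB libraries were 4.63 to 5.08, beside 5.14 to 5.44 over all their sites. In the 35 other libraries that called a member, the medians were 3.33 to 6.05, each 0.498 to 0.954 times the median over all sites of its library. In the 4 CTRL libraries they were 4.06 to 5.08, beside 7.91 to 8.28 over all their sites, and the highest single value outside TGFB was 9.25, in OSM 48 h A. At the 749 members called in both, 24 h A was higher than 48 h C at 607. The median ratio of the 2 libraries was 1.34 at those members and 1.37 over the 44161 sites that both called, so the members followed the general difference between these libraries. Members had a median width of 335 bp (134 to 1077 bp), beside 522 bp at the 129254 consensus sites called in at least 2 of the 42 libraries and 328 bp at the 35851 other sites called in 2 to 5 libraries, the range of the members.

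The members seen in the most TGFB libraries lay in WNT2 and LYSMD2 and near ZNF354A (10461 bp from a start) and HECTD2 (60723 bp). WNT2 encodes a secreted Wnt ligand, and its member lay in an intron at chr7:117283417-117283799, 39460 bp from the nearest transcription start. Its fold enrichment was 13.0 in 24 h A, 4.88 in 24 h C, 4.94 in 48 h A and 5.57 in 48 h C, with no peak listed in 24 h B and 48 h B and none in any other library. The intronic member of LYSMD2 at chr15:51727399-51727953 was the only one called in all 3 libraries at 24 h, at 7.92, 4.03 and 4.202 for A to C, and stood at 3.83 in 48 h C. It too was called in no other library. The intergenic members near ZNF354A, a zinc finger gene, and HECTD2, a ubiquitin ligase gene, were called in 4 TGFB libraries and also in 1 CTRL library each. At ZNF354A the values were 8.78 and 3.88 in 24 h A and B and 7.32 and 7.61 in 48 h A and C, above the 3.57 of CTRL A. At HECTD2 they were 7.34 in 24 h A and 6.62, 4.97 and 8.26 in 48 h A, B and C, above the 4.27 of CTRL C.

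Another 16 members of the 20 called in the most TGFB libraries were called in 24 h A, 48 h A and 48 h C and in no other library. Ties were broken by fewest other libraries and then by mean fold enrichment, so that order itself picked members without other calls. Of the 60 members called in exactly these TGFB libraries, 37 had no call elsewhere. The highest of all members was among the 16. It lay in an intron of PALLD, which encodes the actin-bundling scaffold palladin, at chr4:168694734-168695573, and reached 16.7 in 24 h A, 5.57 in 48 h A and 9.13 in 48 h C. An intron of LAMA3, the laminin alpha 3 chain of the epithelial basement membrane, held a member at chr18:23785014-23785402 with 9.21, 3.86 and 10.5 in the same libraries. The member nearest to DUSP10, a MAP kinase phosphatase gene, was 331740 bp from its start and had values of 12.7, 3.83 and 5.87. Near TBCA, a tubulin-folding cofactor gene, the values were 14.9, 5.14 and 11.8, and near CADM2, a cell adhesion gene, 13.8, 5.57 and 9.46. Over these 16 members 24 h A ranged from 7.93 to 16.7, 48 h A from 3.83 to 6.82 and 48 h C from 4.48 to 11.8, so that 48 h A stood below 24 h A at all 16.

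By mean fold enrichment, the 10 highest members with no call elsewhere included 8 called only in 24 h A and 48 h C. They lay nearest to TENM3, a teneurin (15.4 and 8.30), POU1F1, a pituitary transcription factor (15.9 and 7.47), CDH2 (14.7 and 8.28), ATF7IP (10.2 and 12.04), ADGRL4 (14.8 and 6.97), GDAP1 (12.7 and 8.96), VWC2L (12.6 and 8.96) and CDK5RAP2 (14.7 and 6.47, inside an intron of MEGF9). The distance to a start was 1698889 bp for TENM3, 617978 bp for ADGRL4, 192576 bp for POU1F1, 166939 bp for VWC2L and 105350 bp for GDAP1. ATF7IP, CDK5RAP2 and CDH2 were closer, at 13395, 28440 and 29008 bp. In 7 of these 8 the 24 h library was the higher, with ATF7IP as the exception. The other 2 were the members near TBCA and in PALLD.

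**Figure D3:**
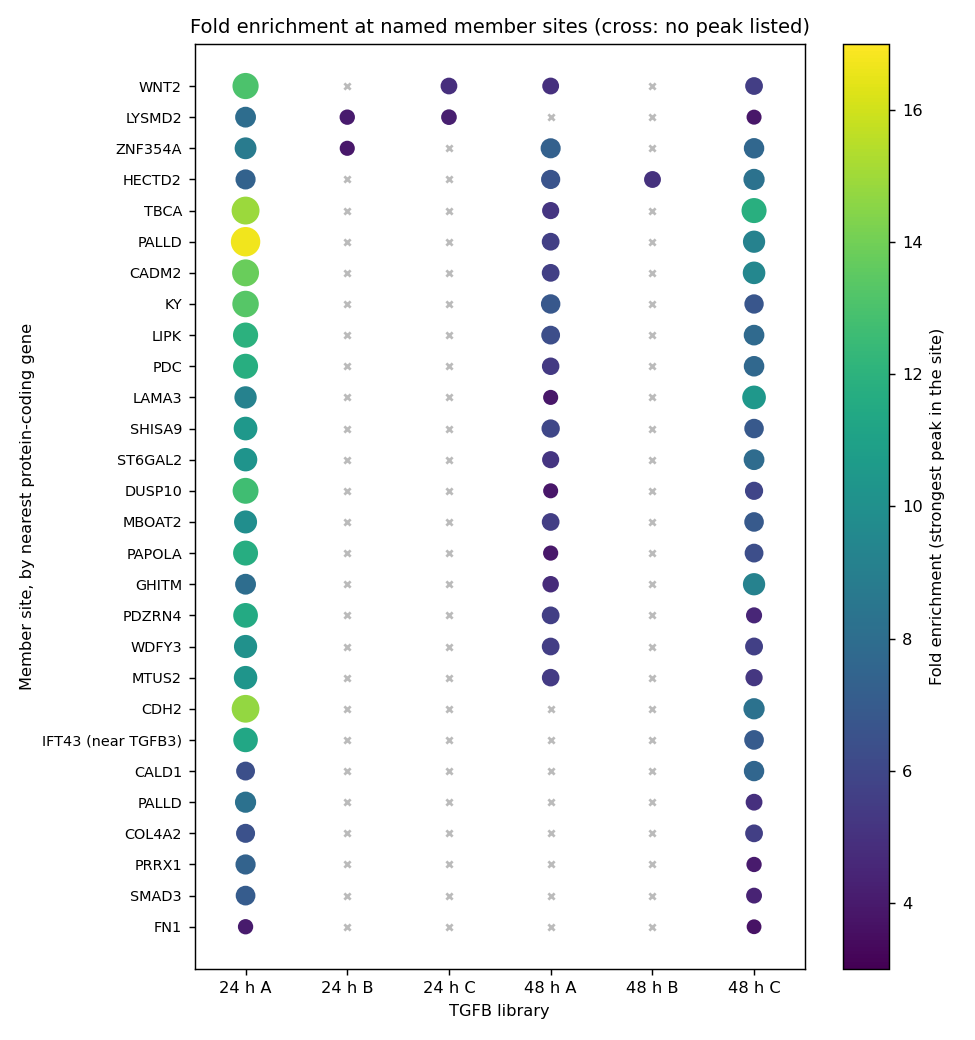
Fold enrichment of the strongest peak in each TGFB library (columns) at 28 members (rows, by nearest protein-coding gene): the 20 called in the most TGFB libraries from the top, then the 8 within 50 kb of a listed gene. Point size and colour both give the fold enrichment and a cross marks no listed peak. Columns 24 h A and 48 h C are filled in every row, and 48 h B is filled only at HECTD2.

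Few listed genes had a member nearby, and the counts are given beside that over all genes. A gene was counted when a member lay within 50 kb of 1 of its transcription starts, which held for 499 of 19962 protein-coding genes (2.5%). Of 39 genes of the TGFB pathway and its early targets, 2 had such a member (5.13%), SMAD3 and TGFB3. Of 22 EMT genes 3 did (13.6%): CDH2, FN1 and PRRX1. Of 20 actin and contractility genes 2 did (10.0%), CALD1 and PALLD, and of 40 matrix and integrin genes 2 did (5.0%), COL4A1 and COL4A2, which share a member. None of 20 epithelial identity genes and none of 16 interferon response genes did. These are small counts of genes that were listed with earlier results of these data known, and no test was made on them.

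All 8 members near listed genes were called in exactly 24 h A and 48 h C. The member in an intron of SMAD3, the receptor-regulated SMAD itself, lay at chr15:67178648-67178869, 12758 bp from a start, with 7.03 in 24 h A, 4.33 in 48 h C and 3.81 in CTRL B. The member 40146 bp from TGFB3, a TGFB ligand gene, lay in an intron of IFT43 at chr14:76022892-76023333, with 11.4 and 6.97. The SMAD3 member was called in untreated cells as well, and the other 7 were called in no library outside TGFB.

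Among EMT genes, CDH2 (N-cadherin, the cadherin of mesenchymal cells) held the highest value. Its intronic member at chr18:28065292-28065946 had 14.7 in 24 h A and 8.28 in 48 h C and lay 29008 bp from a start. The member in PRRX1, a homeobox transcription factor gene, had 7.39 and 3.98. That near FN1, the fibronectin gene, was 29311 bp away at chr2:215465338-215465575 and was low in both libraries, at 3.999 and 3.70. CALD1 encodes caldesmon, which binds actin and myosin, and its member was the closest to a start of any listed gene, 1868 bp away at chr7:134742012-134742520, with 6.37 and 7.58. A second PALLD member at chr4:168618659-168619038, 12891 bp from a start, had 8.22 and 4.92. COL4A1 and COL4A2, which encode the collagen IV chains of the basement membrane and are read in opposite directions from a shared region, had their member in an intron of COL4A2 at chr13:110323171-110323586, with 6.48 and 5.58. Values in 24 h A were the higher at 7 of these 8 members.

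Few genes had more than 1 member nearby. Of the 499 genes, 487 had 1 member within 50 kb and 12 had 2, among them FOXP1, a forkhead transcription factor gene, NT5E, the ecto-5'-nucleotidase CD73, and NAV2. Only 46 members (5.60%) lay within 50 kb of another member. By nearest gene over any distance, 3 members fell to INHBA, which encodes the activin A subunit of the TGFB family and is in the pathway list, at 120485, 673053 and 781700 bp. The closest of these, at chr7:41579863-41580428, had 9.63 in 24 h A and 6.86 in 48 h C and no call elsewhere. INHBA was singled out after its values were seen.

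Members lay away from promoters, which was not particular to TGFB. Only 15 (1.82%) were within 1000 bp of a protein-coding transcription start, beside 11.4% of consensus sites and 3.33% of the other sites called in 2 to 5 libraries. In the sets found by the same rule for other treatments, described below, this share was 1.33% for OSM and 2.102% for PBS. It was 2.67% for IFNG with EGF and 3.32% for HGF. Introns held 337 members (40.998%) and intergenic DNA 457 (55.6%), while 4 fell in coding exons and 9 in other exon parts. The median distance to a start was 71718 bp, beside 35702 bp for consensus sites and 47007 bp for the other sites called in 2 to 5 libraries. More than 50 kb separated 486 members (59.1%) from any start, beside 42.5% and 48.6%. The PBS sites of the same rule lay farther away than the members, at a median of 98540 bp with 64.3% beyond 50 kb. Those of HGF, IFNG with EGF and OSM lay closer, at medians of 42122.5, 44164 and 58839.5 bp with 46.2%, 46.9% and 53.4% beyond 50 kb. Genes for long noncoding RNAs covered 19.1% of members and 18.1% of consensus sites. By chromosome the members ranged from 9 on chromosome 22 to 81 on chromosome 1, and per 100 Mb of sequence from 14.2 on X to 39.9 on 21.

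**Figure D4:**
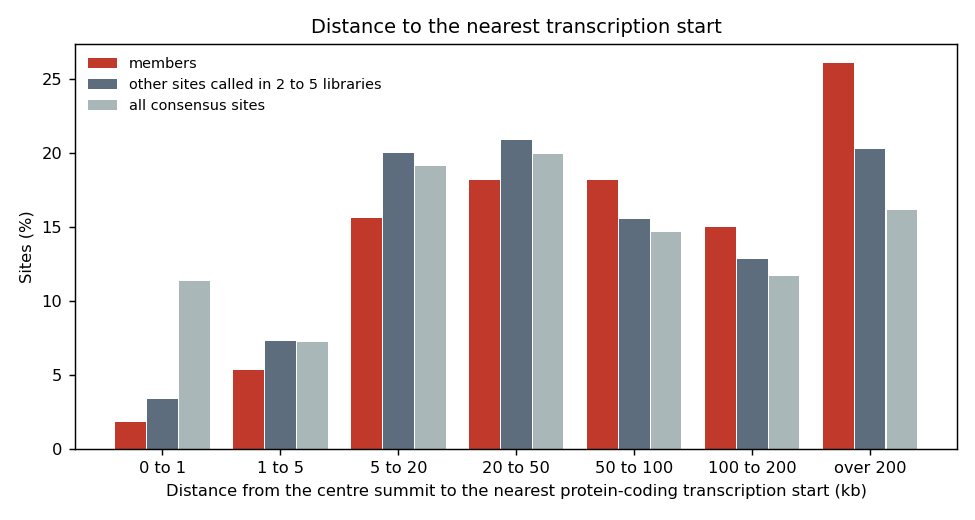
Share of sites (%) by distance from the centre summit to the nearest protein-coding transcription start in kb, for members (red), the other sites called in 2 to 5 libraries (dark grey) and all consensus sites (light grey). Members fill the bin up to 1 kb with 1.82%, against 11.4% of consensus sites, and the bin over 200 kb with 26.03%, against 16.1%.

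The members held SMAD and TEAD letters, and RUNX letters in the whole set, at higher shares than other sites did, which is a description with no test, as the calls chose the sites. Motifs were searched on both strands within 100 bp of the centre summit, the middle one of all summits in the site. CAGACA, a SMAD motif, was in 33.2% of members, 16.9% of consensus sites, 17.1% of all merged sites and 17.02% of the other sites called in 2 to 5 libraries. The shorter SMAD motif GTCTG, whose reverse CAGAC lies within CAGACA, was in 55.1%, 37.9%, 37.8% and 36.9% in the same order. The TEAD motif GGAATG was in 32.4% of members against 15.9%, 15.8% and 15.5%. The RUNX motif TGTGGT was in 24.6% against 16.4%, 16.2% and 16.2%. The RUNX share fell without either of 2 libraries. It was in 11.2% of the 107 sites found without TGFB 24 h A and in 14.2% of the 134 found without 48 h C. Both shares are below that in other sites, but both sets hold the 31 members called in neither library, of which 0 held RUNX. AP-1 fell in the same sets, from 33.5% in all members to 21.5% and 23.9%. RUNX was in 16.7% of the members called in at least 3 TGFB libraries. CAGACA was in 28.04% of the sites found without 24 h A and in 29.1% of those found without 48 h C. The GC content of the windows was close, with a median of 43.8% in members and 44.3% in the other sites called in 2 to 5 libraries. Members with no call elsewhere had 35.4% for CAGACA and 32.6% for TEAD, and members called in 1 CTRL library 34.9% and 36.2%.

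The AP-1 motif TGANTCA, common in epithelial open chromatin, had a share in members between those of the other sets: it was in 33.5% of them, 37.1% of consensus sites and 32.4% of the other sites called in 2 to 5 libraries. AP-1 and CAGACA stood together in 97 members (11.8%), beside 6.80% and 5.57%. At least 1 of the AP-1, CAGACA, TEAD and RUNX motifs was in 647 members (78.7%), beside 61.9% and 60.2%. SMAD and TEAD matches also stood closer to the summit: the median distance was 37 bp for CAGACA and 31 bp for TEAD in members, beside 45 and 41 bp in consensus sites. For AP-1 the order was the other way, 32 bp beside 26 bp.

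Of the other 9 motifs, GATA was in a larger share of members than of both other sets, STAT lay between them, and 7 were in a smaller share than in consensus sites. The CEBP motif TTGCNNAA was in 7.66% of members, beside 14.3% of consensus sites and 14.7% of the other sites called in 2 to 5 libraries. The IRF motif, GAAA repeated after 2 bases, was in 1.82% beside 4.31% and 7.91%. The SP/KLF motif GGGCGG, typical of promoters, was in 1.34% beside 11.999% and 4.83%, and the ETS motif CCGGAA in 1.70% beside 4.48% and 2.06%. The E-box CACCTG, which ZEB and SNAI factors read, was in 11.7% beside 16.4% and 16.4%. The GATA factor motif (AGATAA) was in 11.2% beside 8.39% and 10.1%, STAT (TTCNNNGAA) in 8.03% beside 7.66% and 9.24%, NF-kB (GGGNNTTCC) in 2.68% beside 3.20% and 2.70%, and forkhead (TGTTTAC) in 2.92% beside 3.75% and 3.69%.

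**Figure D5:**
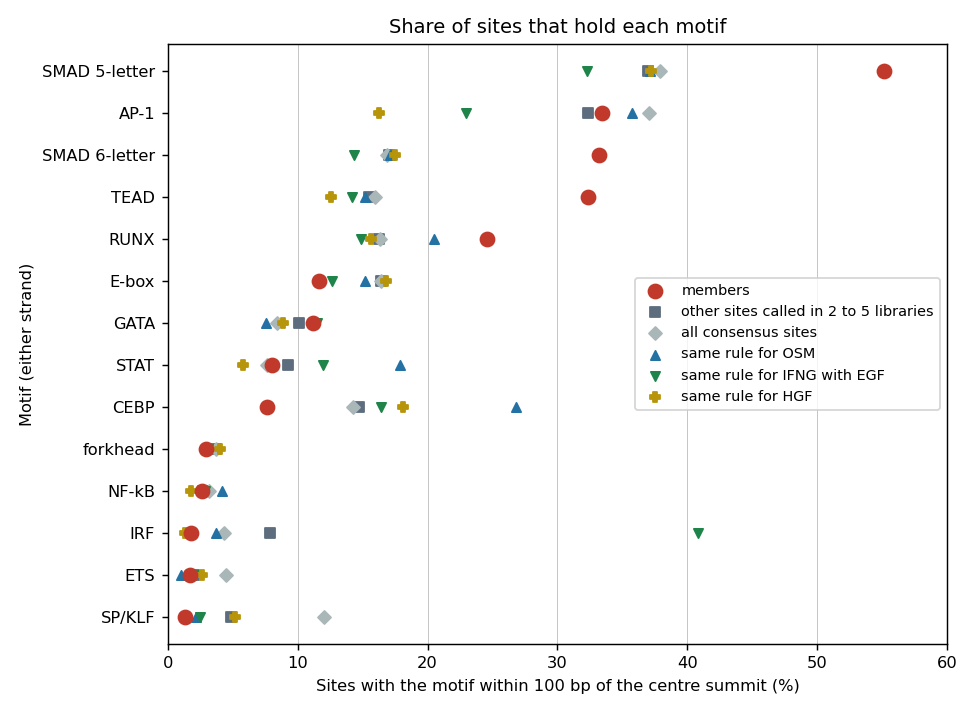
Share of sites (%) with each of 14 motifs within 100 bp of the centre summit, for members (large red points), other sites called in 2 to 5 libraries, consensus sites, and sites found by the same rule for OSM, IFNG with EGF and HGF. Both SMAD motifs, TEAD and RUNX are furthest right in the members (55.1%, 33.2%, 32.4% and 24.6%), CEBP is furthest right for OSM (26.8%) and IRF for IFNG with EGF (40.8%).

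Applied to other treatments, the same rule found 333 sites for PBS (0.199% of merged sites), 844 for HGF (0.505%), 974 for OSM (0.583%) and 4414 for IFNG with EGF (2.64%), each with 6 libraries. The SMAD and TEAD shares of these 4 sets were near or below those of all merged sites: CAGACA was in 16.8% of the PBS sites, 17.5% of the HGF sites, 17.1% of the OSM sites and 14.3% of the IFNG sites, and TEAD in 11.7%, 12.6%, 15.2% and 14.2%. RUNX was in 20.5% of the OSM sites and in 10.8% to 15.6% of the other sets. The sites of OSM, which acts through STAT3, had CEBP in 26.8% and STAT in 17.9%. STAT was not highest there: the PBS sites, without a ligand, had STAT in 19.8% and CEBP in 23.7%. STAT was in 5.81% of the HGF and 11.9% of the IFNG sites, and CEBP in 18.1% and 16.4%. TGFB members were the least shared among replicates: 8.76% were called in at least 3 libraries of the treatment, beside 15.9% for PBS, 18.0% for HGF, 17.2% for OSM and 47.0% for IFNG with EGF. Sites called in only the 2 top libraries of the treatment made 82.8% of the TGFB members. The share was 60.2% for OSM, 30.8% for IFNG with EGF, 23.7% for HGF and 19.2% for PBS.

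Lists of unequal length were then made more equal, which changed most of the sites. When at most the 20000 strongest peaks of each library were kept, the rule gave 1301 TGFB sites, of which 63 (4.84%) overlapped a member, or 7.66% of the members. CAGACA was in 30.1% of these sites, TEAD in 29.1%, RUNX in 22.8% and AP-1 in 41.5%. For OSM under the same limit the shares were 17.1%, 14.6%, 25.2% and 42.5%, and for HGF 14.9%, 10.4%, 12.5% and 27.4%. The median distance of the 1301 sites to a start was 66812 bp, and 434 of them were called in at least 3 TGFB libraries. With 3756 peaks per library, as many as the shortest list held, there were 917 sites, 7 of which overlapped a member, and CAGACA was in 22.5% and TEAD in 21.05%, beside 9.61% to 21.3% and 8.52% to 17.1% in the sets of the 4 other treatments. RUNX was in 17.99% of them, below the 20.97% of OSM and the 18.6% of IFNG with EGF.

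A small group of 31 members was called in neither 24 h A nor 48 h C and differed in place and letters. All but 1 were intergenic, 27 lay more than 250 kb and 22 more than 1 Mb from any transcription start, and 19 of 31 had a call in 1 other library. Several stood in the stretches of chromosomes 1, 5, 10 and 19 that hold the centromeres, where SRGAP2C, EMB, ZNF33B and ZNF254 are merely the nearest genes, at up to 2728055 bp. AP-1 and RUNX were in 0 of the 31, CAGACA in 12.9%, TEAD in 29.03% and STAT in 48.4%. Their strongest fold enrichment had a median of 5.23, beside 6.85 for the other 791 members. In those 791, CAGACA was in 34.01%, TEAD in 32.5%, RUNX in 25.5% and AP-1 in 34.8%, so that these shares were as large without the 31.

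The edges of the rule were not sharp in height. The 297 members called in 2 TGFB libraries and 1 other had a median strongest TGFB fold enrichment of 6.60, and 328 sites just outside, called in at least 2 TGFB and 2 other libraries, had 6.68. The 6545 sites called in 1 TGFB library and no other had 4.73 and a median width of 193 bp. CAGACA was in 29.9% of the former and 26.4% of the latter sites, and TEAD in 28.05% and 24.7%.

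The 2 times of TGFB are set side by side as a description, since the calls that chose the members give these values. The share of members called was 34.02% ± 53.03 after 24 h and 35.7% ± 49.2 after 48 h (SD over 3 libraries each). Members per 1000 listed peaks were 5.62 ± 2.02 and 7.43 ± 5.55, and the median fold enrichment at members was 5.33 ± 1.10 and 4.92 ± 0.186. Each difference was smaller than the SD of at least 1 of the times, and 3 against 3 libraries cannot give an exact permutation p below 0.10.

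Sites that were not members but lay within 50 kb of 1 had a higher adjusted detection under TGFB than under EGF, the matched medium, while their unadjusted detection was lower. Detection at these 4722 neighbours was adjusted for how many libraries call a site, by subtracting the rate at which the library calls non-member sites of that class, so that 0 is the usual rate. It was 2.72 ± 1.79 percentage points in TGFB (SD, n = 6) and -0.981 ± 2.16 in EGF (SD, n = 8), a difference of 3.70 points (exact permutation test within time, two-sided, p = 0.0147). This test cannot speak for an effect of TGFB. The neighbours were picked through members that the same TGFB libraries had called, and 4 TGFB lists were shorter than any EGF list. With the replicate letters as a block the difference was 3.27 points and the call was lost (exact sign-flip permutation p = 0.125). All 6 TGFB libraries were above the EGF mean over both times. Against the EGF mean of the same time, 3 of 3 TGFB libraries were above it at 48 h and 2 of 3 at 24 h. TGFB 24 h A, at -0.566, was below the 24 h EGF mean of -0.274. The difference was 5.13 points at 48 h (exact permutation p = 0.0286, the smallest that 35 arrangements allow) and 2.26 points at 24 h (exact permutation p = 0.314).

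The neighbour value moved with the number of listed peaks, and the same TGFB libraries had chosen the members. The 8 libraries outside TGFB with under 40000 peaks had 0.878 to 3.40 points, and the 4 TGFB libraries of that size 2.46 to 4.85. None of those 8 was an EGF library. EGF lists held 43099 to 100669 peaks, so the 4 small TGFB libraries had no EGF library of like size beside them. Among libraries with over 100000 peaks, TGFB 24 h A had -0.566 and the 7 others -3.81 to -2.30, so that it was the highest. TGFB 48 h C, with 54996 peaks, had 3.025 points, within the -0.0532 to 3.55 of the 8 other libraries with 40000 to 70000. Unadjusted detection followed peak number and gave the opposite sign, 23.8 points lower in TGFB (-23.8, exact permutation p = 0.0261). The part of peak number in the adjusted difference was not tested.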

How the data were processed

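ATAC-seq peak lists of 42 MCF10A libraries were analysed. Per the labels, the authors trimmed reads with Trimmomatic 0.36.5, aligned them to hg38 with Bowtie2 2.3.4.1, removed duplicates with Picard and ran MACS2 2.1.1.20160309.5, library by library, at a q of 0.01. The deposited ratio is the summit's fold enrichment, the deposited -log10 values give its p and q, the deposited score is a whole-number form of the q, and the other deposited columns are positions. No peak lay past the end of its hg38 chromosome. The members and the gene lists were chosen with earlier results of these data known. A gene left out of the lists afterwards is not reported here.

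Peaks were merged by an overlap of at least 1 bp with numpy 2.4.6 and pandas 2.3.3 in Python 3.11.15, and the code was tested on simulated data. The middle summit of a site gave its distance to the starts of 63882 basic transcripts of GENCODE 44, its place (within 1000 bp of a start, otherwise exon, intron or intergenic) and the window for motifs. Sites called in at least 2 libraries were consensus sites. An exact permutation test compared TGFB with EGF at neighbours of members, and TGFB at 48 h and 24 h were set side by side. The text names the 20 members called in the most TGFB libraries (ties by fewest other libraries, then by mean fold enrichment), the 10 highest with no call elsewhere and all within 50 kb of a listed gene; members with shared nearest genes, and the 31, were named after their values were seen. Without read counts no counting interval is given. Where p-values are printed they measure the spread between these libraries.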

Additional observations from a re-analysis of the deposited data

Results flagged for a closer look

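On the Y chromosome and the unplaced, unlocalised and alternative contigs of the assembly, which the rule leaves out and which held 2.48% of all listed peaks in 4631 merged sites, the same rule was met by 16 sites, of which 6 were called in no library outside TGFB. No comparison of the report used these data. The rule itself sets these sites apart from the other libraries, their share of 0.3455% is below the 0.492% on chromosomes 1 to 22 and X, and the same rule gave 15 sites for PBS, 19 for HGF, 17 for OSM and 90 for IFNG with EGF. No library of the 3 groups with 4 libraries (CTRL at 0 h, EGF at 24 h and EGF at 48 h) passed Dixon's 95% critical value for a group of 4 in the number of members called or in the neighbour value.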

How the results depend on the processing

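The number of members, 822, was 831 with peaks up to 100 bp apart merged, 576 with a -log10 q of at least 5 in all libraries, 917 with lists as short as the shortest and 775 with only TGFB 24 h A, 48 h A and 48 h C counted (chosen after seeing the data). Only 7 of the 917 sites overlapped a member, so the count stayed near 822 while the sites were replaced. The number moved to 72 with at least 3 TGFB libraries, 494 with 0 other libraries, 346 with a -log10 q of at least 5 in TGFB only, 1301 with at most 20000 peaks per library and 36 without both 24 h A and 48 h C (chosen after seeing the data). Leaving out 1 library gave 107 to 813 over the 6 TGFB libraries and 824 to 924 over the 36 others. The lowest values, 107 and 134, came without TGFB 24 h A and without 48 h C. The share with CAGACA ranged over 28.04% to 33.9%, with TEAD over 27.6% to 32.8% and with RUNX over 11.2% to 25.4% when 1 TGFB library was left out. Within 50 bp of the summit CAGACA was in 21.05% of members and 8.98% of consensus sites, and TEAD in 22.1% and 9.06%.

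The difference between 48 h and 24 h of TGFB ranged from -26.5 to 32.3 points in the share of members called, from -1.36 to 3.79 in members per 1000 peaks and from -0.761 to 0.226 in median fold enrichment when 1 library was left out, and all 3 changed sign within these ranges. The replicate letters gave no pairing (correlations of deviations between the times from -0.392 to 0.282). With the replicate block the 3 differences were 1.70, 1.81 and -0.408. The neighbour difference of 3.70 points was 3.27 with the replicate block (exact sign-flip p = 0.125, 6 pairs), 3.95 within 20 kb, 3.17 within 100 kb, 4.04 at sites called in at least 3 libraries, 3.23 to 4.43 when 1 library was left out, and 9.78 with equal numbers of peaks (chosen after seeing the data, exact permutation p = 0.00408), where the libraries with the fewest peaks outside TGFB, IFNG with EGF 48 h C and OSM 48 h B, stood at 12.3 and 12.4. Raw detection reversed it to -23.8. The cause of these changes was not tested.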
